A study of Mus musculus with 4 samples.

Results

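The genes described here take up fatty acids and lipoprotein lipid or bind fatty acids inside the cell: *Cd36*, *Slc27a1*, *Slc27a2* and *Slc27a4* (uptake), *Fabp2*, *Fabp4*, *Fabp5* and *Fabp7* (binding), and *Vldlr* and *Lpl* (lipoprotein handling). They were chosen by name, and 10 of 10 were found among the 22103 entries of the FPKM table (fragments per kilobase of transcript scaled to the mapped fragments of each library). Whole liver RNA was sequenced from 2 wild type (WT) mice and 2 Brg1 LKO mice. The latter came from crossing *Smarca4* f/f animals to *Alb*-Cre animals, where Cre under the albumin promoter deletes *Smarca4*, the gene of Brg1, in hepatocytes. The methods describe male mice of 8 weeks. All 4 mice received alcohol for 15 days per the labels, in the NIAAA model, which joins an ethanol liquid diet to one ethanol gavage at its end, and no mouse without ethanol was part of the comparison. The groups therefore differ in genotype under shared ethanol feeding, and the question is how the lipid uptake genes stood when hepatocytes lacked Brg1.

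Fatty acids reach the liver as free acids from adipose tissue and as esters in circulating lipoproteins. CD36 and the SLC27 proteins, which also act as acyl-CoA synthetases, promote entry and trapping of fatty acids, while lipoprotein lipase and the VLDL receptor serve the lipoprotein route. Inside the cell the small FABP proteins carry the fatty acids, with a different family member in hepatocytes, enterocytes, adipocytes, macrophages and brain. Several of these genes are known targets of the PPAR nuclear receptors, which bind DNA as partners of RXR, and an increase of *Cd36* is often seen in fatty liver.

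The deleted gene was checked first. *Smarca4* stood at 1.78 and 1.95 FPKM in WT mice and at 0.608 and 0.579 FPKM in Brg1 LKO mice, 31.8% of the WT mean, so that both libraries labelled as knockout were below both WT libraries. Albumin (*Alb*), the most abundant of the 6 hepatocyte markers, was between 10700 and 12500 FPKM in all mice, and the 6 summed to 19100 and 15400 FPKM in WT mice and 18000 and 19100 FPKM in Brg1 LKO mice. The FPKM steps of low values corresponded to 72598107 to 80933808 reads per library. The median ratio of each library's FPKM to the geometric mean of all libraries was taken as its scale factor. This median-ratio factor was 0.912 and 1.13 in WT replicates 1 and 2 and 0.884 and 1.11 in LKO replicates 1 and 2. Values and orders of single mice are given in FPKM without this rescaling. A mean of at least 0.1 FPKM was required for testing, which left 12346 genes and 9 of the 10 lipid uptake and binding genes. *Vldlr* was below this limit. The threshold of the study was used, an unadjusted p under 0.05 with a change of more than 2-fold, on log2(FPKM + 0.1), a scale that understates the change of low genes. Of all genes tested, 121 (0.980%) passed it, 54 higher (0.437%) and 67 lower (0.543%) in the Brg1 LKO mice, and 247 (2.00%) had an unadjusted p under 0.05. After Benjamini-Hochberg adjustment of the limma p-values, 0 genes stayed under 0.05. With 2 mice against 2, an exact permutation test cannot give a two-sided p below 0.333. The labels do not say whether the 2 mice of a genotype were processed separately throughout, and p-values measure only the spread between these libraries. For each gene, limma takes that spread in part from other genes of similar level. The p-values, standard errors and intervals therefore do not rest on the gene's own replicates alone.

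Of the 9 tested, *Fabp7* alone passed the threshold, with the higher mean in the Brg1 LKO mice, and its groups overlapped in unscaled FPKM. In *Cd36* and *Fabp5* both Brg1 LKO mice were above both WT mice, without passing the threshold, which is 2 of 9 genes where 10.7% of all genes tested had this order. None of the 9 had the opposite order, which 1237 of the 12346 genes tested had. *Vldlr*, which was not among the genes tested, did have that opposite order. The mean was higher in the Brg1 LKO mice for 6 of the 9, where 46.1% of all genes tested were higher. On the log2 scale, the 9 differences ranged from -0.40 to 1.00 with a median of 0.20, beside a median of -0.02 for all genes tested. Leaving out WT replicate 1 gave a median of 0.09, and leaving out LKO replicate 1 gave 0.47. With a pseudocount of 1 the median was 0.07, and with a filter at 1 FPKM, which kept 5 of the genes, it was -0.03 with 2 higher and 3 lower.

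**Figure D1:**
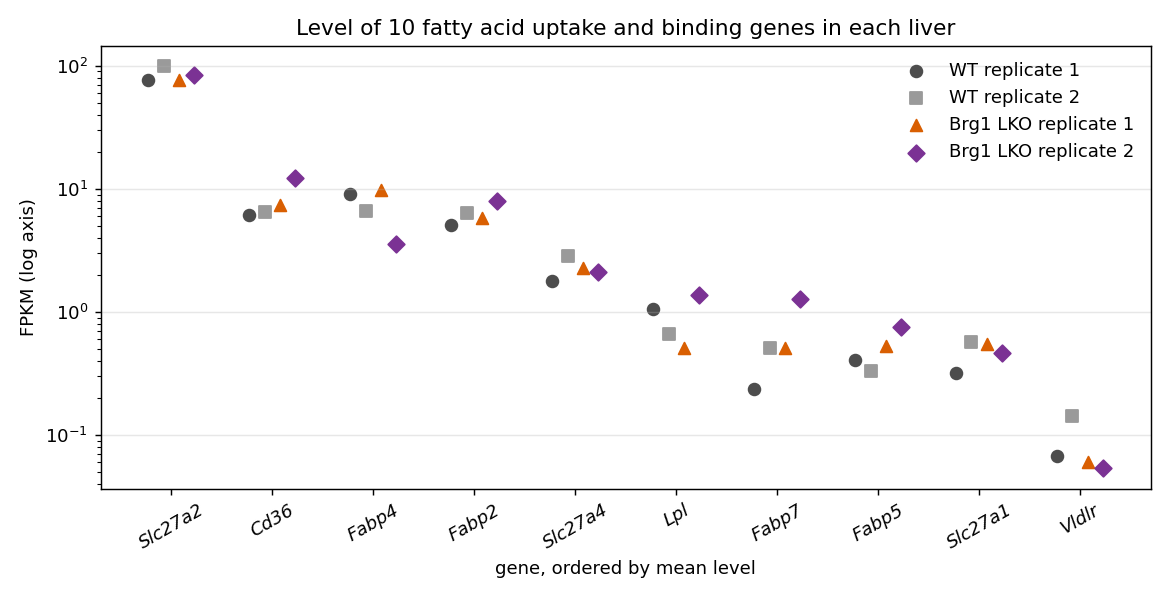
FPKM of the 10 genes (log axis) in each of the 4 mice, ordered by mean level, with circles and squares for the WT mice and triangles and diamonds for the Brg1 LKO mice. *Slc27a2* lies far above the others at 76.6 to 99.5 FPKM, and the diamonds of LKO replicate 2 are the highest of the 4 for *Cd36*, *Fabp2*, *Lpl*, *Fabp7* and *Fabp5* and the lowest for *Fabp4* and *Vldlr*.

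Levels are compared between genes in FPKM, which divides by transcript length. The listed *Fabp5* transcript keeps an intron and has 3238 bases, against 987 for the coding one, so the place of *Fabp5* in the order is uncertain. The order of the means was *Slc27a2* (84.2 FPKM), *Cd36* (8.04), *Fabp4* (7.26), *Fabp2* (6.31), *Slc27a4* (2.25), *Lpl* (0.904), *Fabp7* (0.632), *Fabp5* (0.507), *Slc27a1* (0.476) and *Vldlr* (0.0814). Neighbours whose ranges over the 4 mice did not overlap were *Slc27a2* and *Cd36*, *Fabp2* and *Slc27a4*, *Slc27a4* and *Lpl*, and *Slc27a1* and *Vldlr*. The ranges of *Cd36*, *Fabp4* and *Fabp2* overlapped from one to the next, as did those of *Lpl*, *Fabp7*, *Fabp5* and *Slc27a1*. Of the summed FPKM of 9 FABP family entries, *Fabp1*, the liver form, made up 95.6% to 97.9% in each liver, *Fabp2* 0.977% to 1.65% and *Fabp4* 0.735% to 2.60%. Of the 6 SLC27 genes, *Slc27a5*, a bile acid and very long chain acyl-CoA ligase of hepatocytes, made up 65.6% to 71.0% and *Slc27a2* 27.9% to 33.1%.

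The promoters of *Slc27a2*, *Cd36* and *Fabp7*, the most abundant gene, the main uptake receptor and the gene past the threshold, are shown from RefSeq (GRCm38.p6), 5′ to 3′ on the strand of the gene, from 250 bases before the RefSeq start to 50 after it. A window was found for 7 of the 10 genes (10 windows), and *Fabp4*, *Fabp5* and *Lpl* had none. Capitals mark the core motif of PPAR and related receptors, AGGTCA, which in the 3 windows lies on the opposite strand and so reads TGACCT. The windows are chr2:126552774-126553073 (plus strand), chr5:17835847-17836146 (minus strand) and chr10:57784673-57784972 (plus strand).
Slc27a2: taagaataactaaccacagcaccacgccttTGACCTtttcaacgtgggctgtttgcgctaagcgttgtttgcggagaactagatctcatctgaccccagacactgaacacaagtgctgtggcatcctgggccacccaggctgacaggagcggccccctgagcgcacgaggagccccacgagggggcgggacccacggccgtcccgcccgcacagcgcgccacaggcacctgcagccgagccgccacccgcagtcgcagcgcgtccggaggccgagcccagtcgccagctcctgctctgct
Cd36: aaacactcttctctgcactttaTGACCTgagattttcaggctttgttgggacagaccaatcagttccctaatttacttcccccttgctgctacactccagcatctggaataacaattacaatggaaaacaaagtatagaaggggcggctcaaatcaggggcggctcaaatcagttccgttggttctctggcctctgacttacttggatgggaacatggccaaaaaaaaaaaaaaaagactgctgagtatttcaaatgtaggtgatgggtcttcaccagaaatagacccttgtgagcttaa
Fabp7: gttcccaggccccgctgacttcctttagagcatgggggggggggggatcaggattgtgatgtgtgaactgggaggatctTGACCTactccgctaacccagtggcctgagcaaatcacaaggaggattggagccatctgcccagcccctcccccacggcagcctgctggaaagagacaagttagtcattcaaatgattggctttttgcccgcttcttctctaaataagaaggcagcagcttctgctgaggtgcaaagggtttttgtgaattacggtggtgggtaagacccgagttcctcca
The core motif began 220 bases before the RefSeq start in *Slc27a2*, 228 in *Cd36* and 171 in *Fabp7*. On either strand it was in 3 of the 10 windows of these genes and in 16.3% of all 32851 windows. A direct repeat of 2 such motifs with 1 base between them was in 0 of the 10 windows and in 0.0396% of all windows. These matches describe letters only. The RefSeq start of *Fabp7* is the first base of the listed transcript, but that of *Slc27a2* lies 617 bases and that of *Cd36* 52851 bases downstream of it, so that these windows belong to other start sites than those of the listed transcripts.

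*Cd36* encodes the scavenger receptor and fatty acid translocase found on hepatocytes, macrophages and endothelium. Its listed transcript, ENSMUST00000169095, lies on the minus strand of chromosome 5 (17782367 to 17888747, GRCm38) and has 16 exons. The WT mice had 6.09 and 6.45 FPKM, and the Brg1 LKO mice 7.41 and 12.2 FPKM. LKO replicate 1 was just above the WT range, while LKO replicate 2 was well above it. The means were 6.27 ± 0.257 and 9.80 ± 3.38 FPKM (SD, n = 2 each), a ratio of 1.56. The log2 fold change was 0.59 (standard error 0.35, 95% interval -0.17 to 1.36) and did not pass the threshold (adjusted p = 1, limma with Benjamini-Hochberg adjustment, unadjusted p = 0.117). Leaving out LKO replicate 2 gave 0.24 and leaving out LKO replicate 1 gave 0.95, so that the size turned on which Brg1 LKO liver was kept.

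*Slc27a2*, the gene of FATP2, a very long chain acyl-CoA synthetase and fatty acid transporter of hepatocytes and the most abundant of the 10, lies on the plus strand of chromosome 2 (126552407 to 126588243). It was at 77.3 and 99.5 FPKM in WT mice and at 76.6 and 83.5 FPKM in Brg1 LKO mice. In unscaled FPKM, LKO replicate 2 lay within the WT range and LKO replicate 1 slightly below it. This gave a log2 fold change of -0.13 (95% interval -0.83 to 0.56), an interval that leaves out a 2-fold change in either direction. The span of a noncoding gene on the other strand, *Gm26697*, introns included, covers 1226 exon bases of *Slc27a2*, and the counting is not stated to use strand.

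*Slc27a4* (FATP4), a transporter prominent in intestine and skin, lies on the plus strand of chromosome 2 (29802634 to 29817522). It was at 1.77 and 2.83 FPKM in WT mice and at 2.26 and 2.13 FPKM in Brg1 LKO mice. Both Brg1 LKO values fell between the WT values, and the log2 fold change was -0.03 (95% interval -0.79 to 0.73). *Slc27a1* (FATP1), best known from muscle and adipose tissue, lies on the plus strand of chromosome 8 (71568927 to 71586708). It was at 0.318 and 0.569 FPKM in WT mice and at 0.549 and 0.468 FPKM in Brg1 LKO mice, from 72, 127, 120 and 95 reads. The groups overlapped here too, with a log2 fold change of 0.20 (95% interval -0.59 to 0.99). In unscaled FPKM, the spread between the 2 WT mice was larger than the difference between the genotype means for *Slc27a1*, *Slc27a2* and *Slc27a4*. WT replicate 2 was the higher in each, and its median-ratio factor was also higher, 1.13 against 0.912 in WT replicate 1. For *Slc27a2*, whether the spread exceeds the difference depends on this scale.

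**Figure D2:**
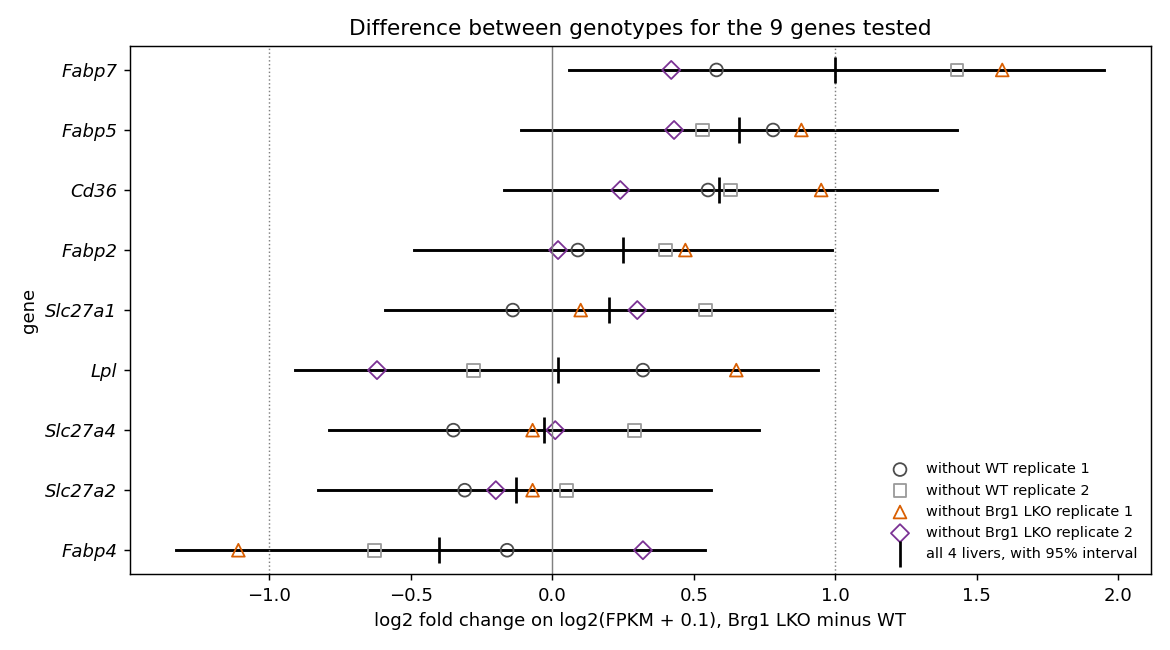
Log2 fold change, Brg1 LKO minus WT on log2(FPKM + 0.1), of the 9 genes tested. Vertical ticks and bars give the value from all 4 mice with its 95% interval, open symbols the value with 1 liver left out, and dotted lines a 2-fold change. The interval of *Fabp7* (0.06 to 1.95) alone lies above 0, and *Fabp4* moves from -1.11 without LKO replicate 1 to 0.32 without LKO replicate 2.

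Among the binding proteins, *Fabp7*, the brain form, which has also been described in Kupffer cells, had the largest difference. Its listed transcript, ENSMUST00000165013, lies on the plus strand of chromosome 10 (57784923 to 57786812) and has 3 exons. Another coding transcript of the gene, of 4 exons and 804 bases, had no entry of its own. The values may thus not stand for all *Fabp7* mRNA. *Fabp7* was at 0.239 and 0.512 FPKM in WT mice and at 0.509 and 1.27 FPKM in Brg1 LKO mice. In unscaled FPKM, LKO replicate 1 and WT replicate 2 were nearly equal, WT replicate 1 was the lowest and LKO replicate 2 the highest. The median-ratio factor was 0.884 for LKO replicate 1 and 1.13 for WT replicate 2, so the near equality and the overlap depend on library scale. The reads behind these values were 17, 36, 35 and 81, with exact 95% Poisson intervals of 9.90 to 27.2, 25.2 to 49.8, 24.4 to 48.7 and 64.3 to 101, which cover counting error only. The means were 0.375 ± 0.193 and 0.888 ± 0.537 FPKM (SD, n = 2 each), a ratio of 2.37. The log2 fold change of 1.00 (standard error 0.44) passed the threshold before adjustment (limma, unadjusted p = 0.0387) and not after it (adjusted p = 1, Benjamini-Hochberg over all genes tested). It was 0.42 without LKO replicate 2, 0.58 without WT replicate 1 and 0.43 with a pseudocount of 1, and in none of these was the threshold passed.

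*Fabp5*, the epidermal form, carried by macrophages and endothelium among other cells, was listed under ENSMUST00000123744 on the plus strand of chromosome 3 (10012605 to 10016335). This is a retained intron transcript of 2 exons and 3238 bases, whereas the coding transcript of *Fabp5* has 4 exons and 987 bases and had no entry of its own. The values may thus not stand for the coding mRNA. The WT mice had 0.408 and 0.329 FPKM and the Brg1 LKO mice 0.529 and 0.761 FPKM, from 107, 85, 134 and 179 reads. Both Brg1 LKO mice were above both WT mice, again with LKO replicate 2 the highest. The log2 fold change was 0.66 (95% interval -0.11 to 1.43) and did not pass the threshold (adjusted p = 1, limma, unadjusted p = 0.0874). It stayed above 0 with each liver left out, between 0.43 and 0.88.

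*Fabp4*, the adipocyte form, which is also found in endothelium and macrophages, lies on the minus strand of chromosome 3 (10204088 to 10208576). It was at 9.17 and 6.60 FPKM in WT mice and at 9.72 and 3.55 FPKM in Brg1 LKO mice. The 2 Brg1 LKO mice were the highest and the lowest of the 4, with both WT mice between them. The log2 fold change of -0.40 (95% interval -1.33 to 0.54) did not pass the threshold. Without LKO replicate 1 it was -1.11 and past the threshold, which 4.49% of all genes tested then passed, and without LKO replicate 2 it was 0.32. Adipocyte markers were at or near 0 in all mice. *Lep*, *Cfd* and *Retn* were listed at 0 throughout, *Adipoq* reached 0.00990 FPKM in 1 liver, and the most abundant of the 6, *Plin1*, was at most 0.0401 FPKM.

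*Fabp2*, the intestinal form, lies on the plus strand of chromosome 3 (122895072 to 122899506). It was at 5.12 and 6.35 FPKM in WT mice and at 5.78 and 7.96 FPKM in Brg1 LKO mice. The groups overlapped in unscaled FPKM, an order that depends on library scale. On the log2 scale the difference was 0.25 (95% interval -0.49 to 0.99). Of 5 intestinal markers, *Cdx2* and *Sis* were listed at 0 in all mice, and *Muc2*, the most abundant, was at most 0.0393 FPKM. The span of the antisense gene *4933405D12Rik*, introns included, covers all 965 exon bases of *Fabp2*, and the counting is not stated to use strand. The exons of the pair were not compared, so whether they share reads was not tested.

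*Lpl*, the lipase that frees fatty acids from circulating triglyceride and is low in adult hepatocytes, lies on the plus strand of chromosome 8 (68880491 to 68906934). It was at 1.06 and 0.663 FPKM in WT mice and at 0.513 and 1.38 FPKM in Brg1 LKO mice. As for *Fabp4*, the Brg1 LKO mice were the lowest and the highest of the 4, but in the opposite order. Its log2 fold change was 0.02 (95% interval -0.91 to 0.94), and leaving out LKO replicate 2 gave -0.62, LKO replicate 1 0.65. *Vldlr*, which encodes the VLDL receptor and is known to be low in normal liver, lies on the plus strand of chromosome 19 (27217357 to 27254231). It was at 0.0682 and 0.143 FPKM in WT mice and at 0.0610 and 0.0536 FPKM in Brg1 LKO mice. Both Brg1 LKO mice were below both WT mice, LKO replicate 1 only narrowly so. These values rest on 44, 91, 38 and 31 reads, with exact 95% Poisson intervals of 32.0 to 59.1, 73.3 to 112, 26.9 to 52.2 and 21.1 to 44.0. The intervals of WT replicate 1 and both Brg1 LKO mice overlapped, and that of WT replicate 2 stood above all of them. The Brg1 LKO mean was 54.3% of the WT mean. Tested without the filter on low values, its difference was -0.36 on the log2 scale, with a standard error of 0.22 (limma over 16853 genes, adjusted p = 1).

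LKO replicate 2 was the mouse in which *Cd36*, *Fabp5*, *Fabp7*, *Fabp2* and *Lpl* were highest, and *Fabp4* and *Vldlr* lowest, in unscaled FPKM. Macrophage markers were highest in it too. The median-ratio factor of this library was 1.11, against 0.884 in LKO replicate 1. The share of all genes tested that were highest in this mouse was not counted, so no background stands beside these orders. All 10 macrophage markers had the higher mean in the Brg1 LKO mice, with a median log2 fold change of 0.80, and 3 (*Cd5l*, *Cd68* and *Vsig4*, named after their values were seen) passed the threshold, where 0.980% of all genes tested did. Their summed level was 43.3 and 44.6 FPKM in WT mice and 55.8 and 124 FPKM in Brg1 LKO mice, and the most abundant, *C1qa*, stood at 12.0 and 11.7 FPKM against 14.0 and 27.1 FPKM. Relative to the WT mean, the 2 Brg1 LKO mice stood at 1.18 and 1.94 for *Cd36*, 1.44 and 2.07 for *Fabp5*, 1.36 and 3.38 for *Fabp7* and 1.27 and 2.82 for the summed macrophage markers. Without LKO replicate 2 the median of the macrophage markers was 0.25 with 1 past the threshold (3.66% of all genes tested), and without LKO replicate 1 it was 1.38 with 10 past it (4.49% of all genes tested). In whole liver, more cells of a type and more RNA per cell cannot be told apart, and the part of macrophage RNA in the values of these genes was not tested.

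**Figure D3:**
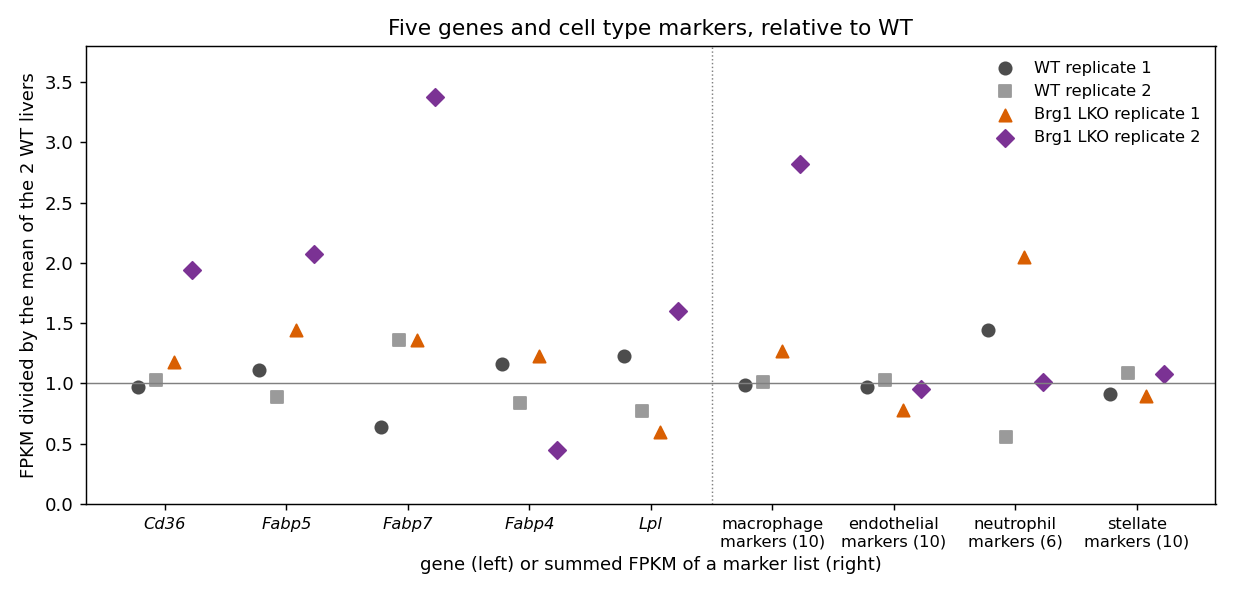
FPKM of 5 genes (left) and summed FPKM of 4 marker lists (right) in each liver, divided by the mean of the 2 WT mice. LKO replicate 2 (diamonds) is the highest point for *Cd36*, *Fabp5*, *Fabp7*, *Lpl* and the macrophage markers, at 1.94, 2.07, 3.38, 1.6 and 2.82, and the lowest for *Fabp4* at 0.450.

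The summed markers of endothelium, stellate cells, cholangiocytes and neutrophils were not highest in LKO replicate 2. Those of hepatocytes were at 19100 FPKM, rounded, in both LKO replicate 2 and WT replicate 1. Of single markers, LKO replicate 2 was the highest of the 4 for 10 of 10 in the macrophage list, 3 of 10 in the endothelial list, 1 of 10 (*Dcn*) in the stellate list, 1 of 6 in the neutrophil list and 0 of 5 in the cholangiocyte list. In the hepatocyte list this held for 1 of 6, and in the adipocyte and intestinal lists for 1 of the 3 markers above 0 in each. The 10 endothelial markers summed to 34.1 and 35.9 FPKM in WT mice and 27.3 and 33.5 FPKM in Brg1 LKO mice, with 0 past the threshold and *Pecam1* the most abundant. The 10 stellate cell markers, led by *Dcn*, summed to 21.8 to 26.2 FPKM in WT mice and 21.5 to 25.9 FPKM in Brg1 LKO mice. The 5 cholangiocyte markers, led by *Spp1*, summed to 4.10 and 4.67 FPKM against 3.21 and 3.52 FPKM. The 6 neutrophil markers, led by *S100a9*, summed to 11.6 and 4.44 FPKM in WT mice and 16.4 and 8.07 FPKM in Brg1 LKO mice, highest in LKO replicate 1. The genes nearest in pattern to *Fabp7* over the 4 mice, among the 7733 whose mean reached 1 FPKM, were *Emp3*, *Cd52* and *Axl*, at distances of 0.26, 0.27 and 0.30 between centred log2 values. *Axl*, a receptor tyrosine kinase, was at 1.45 and 2.18 FPKM in WT mice and 2.12 and 4.70 FPKM in Brg1 LKO mice. Nearest to *Fabp5* were *Ufl1*, *A630007B06Rik* and *Ibtk*, at 0.06, 0.07 and 0.09. With 4 points such distances only describe likeness.

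Around these genes, 48 others of lipid uptake and its control were examined. Of the 38 tested, 0 passed the threshold in either direction (1 had an unadjusted p under 0.05), where 0.980% of all genes did, and voom likewise passed 0 of them. They had a median log2 fold change of 0.06, with 21 higher and 17 lower. Among 6 tested genes of fatty acid transport and activation, *Slc27a5* was the most abundant, at 154 and 197 FPKM in WT mice and 195 and 166 FPKM in Brg1 LKO mice (log2 fold change 0.04). The largest difference in that list was that of *Acsl1*, an acyl-CoA synthetase, at 0.40. Its entry is a retained intron transcript. Among 4 tested binding proteins, *Scp2*, the sterol carrier protein, had both the highest level and the largest difference, at 698 and 728 FPKM in WT mice and 845 and 839 FPKM in Brg1 LKO mice (log2 fold change 0.24, 95% interval -0.40 to 0.88). *Fabp1*, the chief binding protein of hepatocytes, was at 338 and 636 FPKM in WT mice and between them, at 362 and 469 FPKM, in the Brg1 LKO mice.

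Of 8 tested lipoprotein receptors and their regulators, *Lsr*, the lipolysis-stimulated receptor, was the most abundant at 89.3 to 112 FPKM, with a log2 fold change of -0.13 (95% interval -0.82 to 0.55). Of 11 genes that act on lipases, *Apoc3*, an inhibitor of lipoprotein lipase, was the most abundant at 984 to 1230 FPKM. *Angptl8*, a feeding-induced inhibitor of lipoprotein lipase listed under its older symbol *Gm6484*, was at 13.1 and 16.0 FPKM in WT mice and at 0.622 and 17.8 FPKM in Brg1 LKO mice. LKO replicate 1 alone stood apart, and the log2 fold change of -2.02 did not pass the threshold (adjusted p = 1, limma, unadjusted p = 0.0501). *Sel1l*, an ER factor needed for maturation of the lipase, was the 1 gene with an unadjusted p under 0.05, with 29.3 and 26.3 FPKM in WT mice and 35.8 and 71.2 FPKM in Brg1 LKO mice (log2 fold change 0.86, limma, adjusted p = 1).

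**Figure D4:**
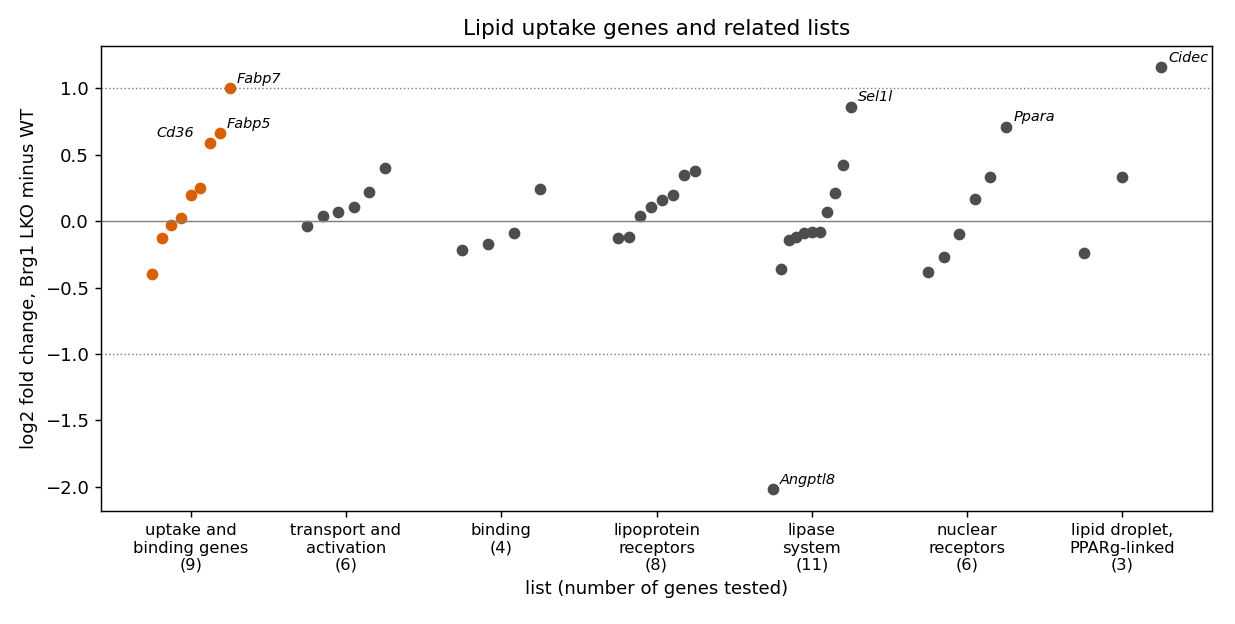
Log2 fold change, Brg1 LKO minus WT, of each gene tested, for the uptake and binding genes (9, orange) and 6 lists of related genes (grey). Dotted lines mark a 2-fold change. *Angptl8* (-2.02) and *Cidec* (1.16) lie outside the dotted lines without passing the threshold, and *Fabp7* (1.00) lies on the upper one.

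Of 6 tested nuclear receptors, *Ppara*, the main fatty acid sensor of hepatocytes, had the largest difference. It was at 1.58 and 1.80 FPKM in WT mice and at 2.39 and 3.34 FPKM in Brg1 LKO mice, so that both Brg1 LKO mice were above both WT mice, with LKO replicate 2 the highest (log2 fold change 0.71, 95% interval -0.03 to 1.45). *Nr1h3*, the gene of LXRα, was the most abundant of them, at 32.3 and 39.2 FPKM in WT mice and at 17.3 and 50.1 FPKM in Brg1 LKO mice. *Pparg* was below the limit for testing, at 0.0593 FPKM or less. Of the 3 tested lipid droplet genes, *Plin2*, the droplet coat protein, was the most abundant, at 168 and 220 FPKM in WT mice and 244 and 241 FPKM in Brg1 LKO mice (log2 fold change 0.33). *Cidec*, a droplet fusion protein, was at 5.01 and 4.45 FPKM in WT mice and at 43.8 and 2.55 FPKM in Brg1 LKO mice. LKO replicate 1 was thus the mouse that stood apart for *Angptl8* and *Cidec*, whereas LKO replicate 2 was the highest for *Cd36*, *Fabp5* and *Fabp7*.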

How the data were processed

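The authors deposited FPKM per entry and liver, each entry under a transcript identifier and a symbol. Per the methods, reads were trimmed with Trimmomatic, mapped to GRCm38 with HISAT2 and FPKM calculated with Cufflinks. The submitters' processing notes name HISAT2 2.0.4 and StringTie 2.1.4. The methods name a stranded Illumina kit and the labels BGIseq libraries. FPKM divides by each library's total, so abundant genes shift the others.

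Transcript lengths came from GENCODE M21 (GRCm38, 98.3% of entries). Each library's total was set so that low values on transcripts of at least 2000 bases became whole reads (88.5% to 89.6% within 0.1 of a whole read), which gave 80933808 and 79904003 (WT) and 78176521 and 72598107 (LKO) reads. Reads are estimates, whole for 7 of the 10 genes. Of the 22103 entries, 1300 were retained intron transcripts.

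log2(FPKM + 0.1) was fitted with limma 3.58.1 in R 4.3.3 (eBayes with trend, all libraries, no covariate, mean of at least 0.1 FPKM), tested on simulated data. Other steps used Python 3.11.15 and SciPy 1.17.1. Alternatives were pseudocounts, filters, scalings, eBayes without trend, a replicate block, each liver left out and, added after seeing the data, voom on estimated reads. The members and lists were chosen with earlier results of these data known. Besides the members, the rule named the most abundant and the most changed gene of each list, the most abundant of each marker list and the nearest patterns. One gene so named is not reported here. *Fabp1*, *Sel1l*, *Slc27a3*, *Pparg*, *Adipoq* and the genes listed at 0 were added after their values were seen.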

Additional observations from a re-analysis of the deposited data

How the results depend on the processing

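*Fabp7* was the 1 gene of the 9 past the threshold, and 0 were past it with a pseudocount of 1 (log2 fold change 0.43), with no filter on low values (1.00), with the low-value limit raised to 1 FPKM, which removed it, or with voom (1.20). With a liver left out, 0 to 2 passed, the 2 being *Fabp4* and *Fabp7* without LKO replicate 1. The cause was not tested. With a liver left out, the log2 fold change ranged from 0.42 to 1.59 for *Fabp7*, from -1.11 to 0.32 for *Fabp4*, from -0.62 to 0.65 for *Lpl*, from -0.14 to 0.54 for *Slc27a1*, from -0.31 to 0.05 for *Slc27a2* and from -0.35 to 0.29 for *Slc27a4*, which was 0.0030 after median-ratio rescaling. *Cd36*, *Fabp2* and *Fabp5* kept their direction under every alternative that tested them. *Vldlr* moved from -0.36 to -0.06 with a pseudocount of 1 and to -0.70 with 0.01. Of the other lipid uptake genes, 1 (*Angptl8*) passed with the filter at 1 FPKM and 0 to 4 with a liver left out (*Sel1l* and *Slc27a3* without LKO replicate 1, *Angptl8*, *Cidec*, *Nr1h3* and *Slc27a3* without LKO replicate 2). Over all genes, 121 passed, and 18 with a pseudocount of 1, 80 with no filter, 68 with the filter at 1 FPKM, where fewer genes were tested, and 73 to 557 with a liver left out, where the lone liver is assumed to vary like the pair. The replicate block gave 108 and left *Fabp7* past the threshold. The mice share only a number (correlation of their deviations 0.0307 across genes), and the block changed no other call among the 9. Estimated reads of 17 to 91 limit *Fabp7* and *Vldlr*.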
